A study of Mus musculus with 5 samples.

Results

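Insulin and IGF1 signal through a short chain of proteins, and transcripts of 8 genes of that chain were followed here in mouse liver tumors: Akt1 and Akt2, the receptor genes Insr and Igf1r, the adaptor genes Irs1 and Irs2, and the transcription factor genes Foxo1 and Foxo3. They were picked out by gene symbol and are 8 of the 55397 genes in the table. All 8 were among the 17105 genes with a mean normalized count of at least 10, which were the genes tested. Bulk RNA-seq was available from 5 libraries of dissected tumors, 2 labelled Control and 3 labelled Prox1 OE, with 48740863 to 56629477 reads each. Female C57BL/6N mice were injected at 8 weeks of age by hydrodynamic tail vein injection, which drives plasmid DNA into hepatocytes. All mice, Control included, received CMV-Sleeping Beauty transposase, pT3-EF1a-AKT and pT3-EF1a-NICD-IRES-rtTA, so that AKT and the NOTCH1 intracellular domain (NICD) were expressed from the broadly active EF1a promoter in both groups. Control mice also received pT3-Tre-IRES-GFP and Prox1 OE mice pT3-Tre-FLAG-mmProx1-IRES-GFP, which carries mouse Prox1, a transcription factor of hepatocytes, behind a promoter that rtTA and doxycycline switch on. Food with 6.25% doxycycline was given from day 21, for Prox1 expression from week 3 to week 4. Mice were killed a week into overexpression or once a humane endpoint was reached, and the labels do not say which applied to which library. Nor do they say that each library came from its own mouse, so that p-values measure the spread between these libraries, part of which may be technical.

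Ligand-bound INSR and IGF1R phosphorylate the docking proteins IRS1 and IRS2, which recruit PI3-kinase. The lipid it makes, PIP3, brings AKT kinases to the membrane, where PDK1 and mTORC2 activate them. AKT in turn phosphorylates many proteins, among them FOXO1 and FOXO3, which then leave the nucleus. In the liver, FOXO proteins are known to switch on genes of glucose production and Irs2, while insulin raises lipid synthesis genes through SREBP1C. Adult hepatocytes use INSR and AKT2 and have little IGF1R.

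The overexpressed gene, Prox1, read 4153 and 4664 normalized counts in Control against 48089.8, 11113 and 8231 in Prox1 OE. All 3 lay above both Control values, with replicate 1 far above the other 2, and the limma adjusted p was 0.061 (log2 fold change 1.90). The call depended on the fit: Prox1 passed by edgeR (2.36, adjusted p 0.047), under the replicate block (2.39, limma adjusted p 0.0013) and without Prox1 OE replicate 1 (1.12, 0.0056) or replicate 3 (2.39, 0.032), and over 16 alternatives its log2 fold change ran from 1.12 to 2.39. The labels give the cell type as transformed hepatocytes. The marker counts that follow are limma calls at an adjusted p under 0.05, which 17.1% of all genes tested met as higher and 16.2% as lower. Hepatocyte markers such as Alb and Ttr were detected in every library, and 9 of 10 were higher in Prox1 OE (summed level 802590.2 to 1285549 in Control and 2601707 to 4005601 in Prox1 OE). Without Prox1 OE replicate 2, 5 were higher, where 12.5% of all genes tested were. The median log2 fold change of these markers was 1.70, and 1.23 without Control replicate 1. Cholangiocyte markers were detected in every library as well, and 8 of 10 were lower in Prox1 OE (median log2 fold change -1.18). Calls fell when a Control library was left out, here as over all genes tested. The median was then -1.26 without Control replicate 1 and -1.15 without Control replicate 2. The summed level of cholangiocyte markers was mostly Spp1, which was not called, and the other 9 summed to 52012 to 56793 in Control and 17897 to 24066 in Prox1 OE. The summed level of 8 stellate cell or fibroblast markers was 96234 to 97626 in Control and 54921 to 65018 in Prox1 OE, with 2 of them higher and 3 lower. Most of this sum was Col1a1 and Col3a1, which with Acta2 were the 3 lower, while Lrat and Reln were the 2 higher. Macrophage markers (2 of 8 higher, 1 lower; 22747 to 25058 against 29156 to 46525) and endothelial markers (3 of 8 higher, 1 lower; 9216 to 11339 against 10932 to 15271) were also present. These shares rest on few genes and varied with the fit. By DESeq2, 5 macrophage markers were higher, where 20.3% of all genes tested were. Under the replicate block 6 were (15.6% of all genes tested), and by limma without the trend 0 were (13.4%). The median log2 fold change was 0.66 for macrophage and 0.09 for endothelial markers, and 0.60 and -0.04 without Control replicate 1. Of 7 T or B cell markers tested, 3 were higher, at sums of 197 to 237 against 365 to 503, but 0 were without Control replicate 1, Control replicate 2 or Prox1 OE replicate 2. In the adipocyte list, Adipoq and Lep had 3 reads or fewer in every library. Its only tested gene, Cidec, was higher, at 3251 and 2878 normalized counts in Control and 9575, 9559 and 9195 in Prox1 OE (log2 fold change 1.63, limma adjusted p 0.0014).

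Several of the 8 genes are close relatives, so the longest run of coding sequence that each pair shares was read from the mouse genome (build GRCm38, GENCODE M21 transcripts), in order to show how far reads of relatives can be told apart. In each line below, 15 bases stand on either side of the shared run, which is in capitals, and sequences run 5′ to 3′ on the strand of the gene. Akt1 (chr12:112656831-112656862, minus strand) and Akt2 (chr7:27636393-27636424, plus strand) share 32 bases in exon 11 of 14. Insr (chr8:3192744-3192762, minus strand) and Igf1r (chr7:68187030-68187048, plus strand) share 19 bases in exon 8 of 21. Foxo1 (chr3:52269372-52269409, plus strand) and Foxo3 (chr10:42274829-42274866, minus strand) share 38 bases.
Akt1: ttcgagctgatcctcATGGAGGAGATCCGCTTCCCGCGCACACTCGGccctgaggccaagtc
Akt2: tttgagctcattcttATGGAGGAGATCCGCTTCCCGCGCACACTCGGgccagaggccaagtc
Insr: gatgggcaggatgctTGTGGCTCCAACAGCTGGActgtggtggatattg
Igf1r: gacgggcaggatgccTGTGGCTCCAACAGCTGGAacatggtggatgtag
Foxo1: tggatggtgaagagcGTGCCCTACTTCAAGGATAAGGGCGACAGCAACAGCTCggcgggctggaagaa
Foxo3: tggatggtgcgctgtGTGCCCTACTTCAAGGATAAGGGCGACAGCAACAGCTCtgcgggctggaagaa
Irs1 and Irs2 share at most 21 bases. All these runs are shorter than the 100-base reads, and no 50-base stretch of any transcript of one of the 8 genes occurred in a transcript of another. Akt2 had 9.76% of its 50-base stretches in Akt2-ps, a pseudogene. Irs1 had 30.5% of them in Gm9747, a gene on the opposite strand that was listed at 0 in all libraries. No such stretch was found elsewhere for Akt1, Igf1r or Foxo3, and the share was 0.225% to 6.8% for the remaining 3.

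Across the 8 genes, Igf1r, Akt1 and Foxo3 were lower in Prox1 OE, Irs1 was higher, and Akt2, Insr, Irs2 and Foxo1 did not pass the test. Calls were made at a limma adjusted p under 0.05, with adjustment over all 17105 genes. Of all genes tested, 33.3% were called, 17.1% higher and 16.2% lower, and 4 of these 8 were called, 1 higher and 3 lower, a difference in share that so few genes cannot carry. The groups did not overlap for 5 of the 8, against 63.3% of all genes tested. The median log2 fold change of the 8 genes was 0.09, and that of all genes tested was -0.02. Because tumors were sequenced whole, fewer cells of a type and less RNA per cell cannot be told apart for any of these values. Without Prox1 OE replicate 1, the library with by far the most Prox1, 1 gene was again called higher and 3 lower. Leaving out any of the other 4 libraries gave 0 higher, as Irs1 lost its call, and 1 to 3 lower, with 1 lower without Control replicate 1.

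**Figure D1:**
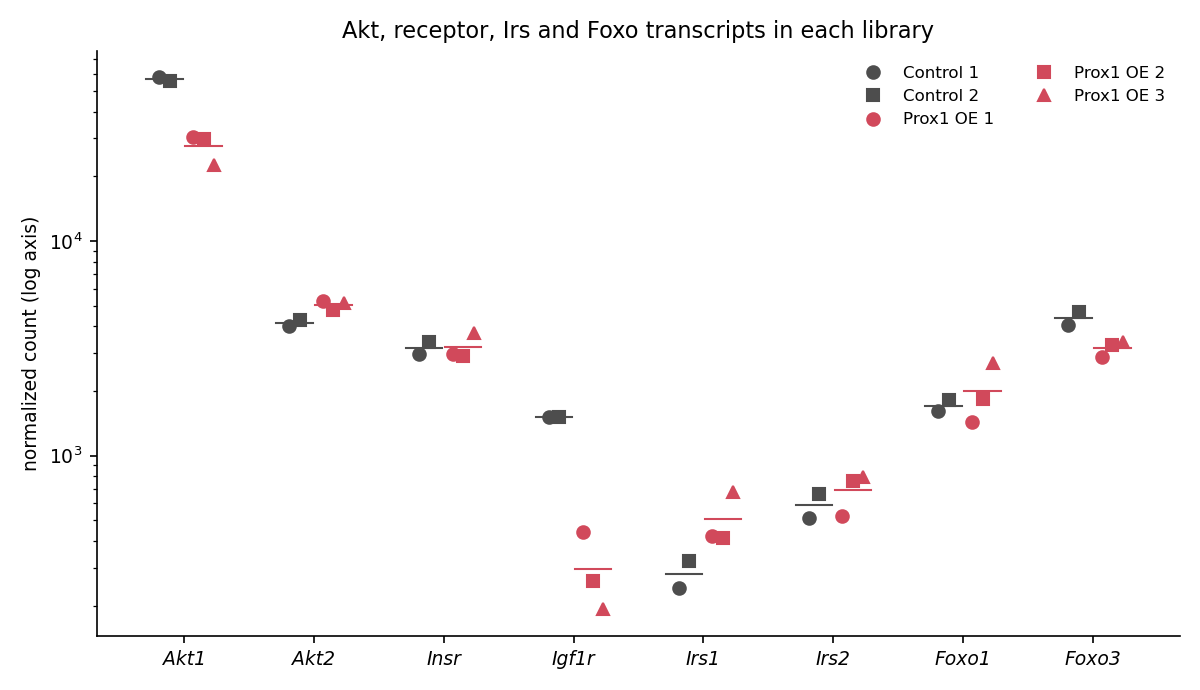
Normalized count (log axis) of each of the 8 genes in the 2 Control libraries (dark symbols) and the 3 Prox1 OE libraries (red symbols), with a line at each group mean. The widest gap between groups is that of Igf1r, at 1507 to 1513 in Control and 193 to 439.7 in Prox1 OE.

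Akt1 (ENSMUSG00000001729, chr12:112653821-112674884, minus strand), the AKT gene of most tissues and one that an AKT plasmid may add to, was lower in Prox1 OE. Control libraries 1 and 2 held 57782 and 55267 normalized counts of it, and Prox1 OE libraries 1, 2 and 3 held 30413, 29720.0 and 22530.0. None of the latter reached either Control value. Means over libraries were 56524 ± 1778 (SD, n = 2) and 27554 ± 4365 (SD, n = 3), a Control level 2.05 times that of Prox1 OE. On the log2(normalized count + 1) scale the fold change was -1.05 (SE 0.18, 95% interval -1.47 to -0.63), with a limma adjusted p of 0.0057. Akt1 took 0.134% and 0.121% of all reads in Control and 0.053%, 0.0517% and 0.0344% in Prox1 OE. Whether the AKT plasmid holds mouse or human sequence is not stated, and reads of the plasmid and of the mouse gene were not separated. The other oncogene, NICD, comes from Notch1, which had 13002 and 11967 normalized counts in Control and 7027, 5094 and 4524 in Prox1 OE (log2 fold change -1.19, limma adjusted p 0.0046). Without Control replicate 1 both calls were lost, at -1.02 on the log2 scale for Akt1 (limma adjusted p 0.069) and -1.13 for Notch1 (0.053).

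Akt2 (ENSMUSG00000004056, chr7:27591552-27640826, plus strand) encodes the AKT kinase on which the liver's response to insulin mainly rests. Its normalized counts were 4028 and 4276 in Control and 5265, 4754 and 5137 in Prox1 OE. Each Prox1 OE library was above both Control libraries, by a small margin. The log2 fold change of 0.28 (SE 0.11, 95% interval 0.03 to 0.54) had a limma adjusted p of 0.084 and was not called. Its sign depended on scaling, at -0.15 when libraries were scaled to their total count, which put the median of all genes at -0.44.

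Igf1r (ENSMUSG00000005533, chr7:67952827-68233668, plus strand), the receptor of IGF1 and IGF2, had the largest change of the 8 genes. It had 1513 and 1507 normalized counts in Control and 439.7, 259.6 and 193 in Prox1 OE. The 2 Control libraries were nearly alike and stood far above all 3 Prox1 OE libraries. Means were 1510.2 ± 4.38 (SD, n = 2) and 298 ± 127 (SD, n = 3), so that the Control mean was 5.08 times that of Prox1 OE. The log2 fold change was -2.42 (SE 0.31, 95% interval -3.16 to -1.69), with a limma adjusted p of 0.0029, and only 1.0% of all genes tested had a lower value. Among all genes tested, its mean level went from the 64.5th percentile in Control to the 35.6th in Prox1 OE. The call held under each of 16 alternative settings, among them leaving out any single library, with log2 fold changes from -2.85 to -2.16 and adjusted p-values up to 0.035. The cholangiocyte markers Krt19 (8442 and 10789.8 normalized counts in Control against 1643, 1968 and 1785 in Prox1 OE) and Cftr (6111 and 6398 against 1611, 1910.4 and 1477) moved in the same direction. Their part in the Igf1r result was not tested.

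Insr (ENSMUSG00000005534, chr8:3122061-3279617, minus strand), the insulin receptor gene, showed no detectable difference. Its normalized counts were 2968 and 3385 in Control and 2965, 2923 and 3731 in Prox1 OE, and the groups overlapped. The log2 fold change was 0.01 (SE 0.15), and its 95% interval of -0.33 to 0.35 did not include a change of the size seen for Igf1r. This value depended on scaling: dividing by the total count, which moved the median of all genes to -0.44, put Insr at -0.42 with a limma adjusted p of 0.027, close to that median.

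Irs1 (ENSMUSG00000055980, chr1:82233101-82291416, minus strand) was the only one of the 8 genes called higher. It had 241 and 323 normalized counts in Control and 424, 412 and 677 in Prox1 OE, so that all Prox1 OE libraries lay above both Control libraries. Means of 282 ± 58.2 (SD, n = 2) and 504 ± 149.6 (SD, n = 3) differed by a ratio of 1.79, or 0.81 on the log2 scale (SE 0.26, 95% interval 0.21 to 1.42), at a limma adjusted p of 0.047. That p was just under the threshold and rose above it on leaving out Control replicate 1 (log2 fold change 0.60, adjusted p 0.3), Control replicate 2 (1.03, 0.095), Prox1 OE replicate 2 (0.94, 0.069) or Prox1 OE replicate 3 (0.58, 0.088). Under total count scaling the log2 fold change of Irs1 was 0.38 (limma adjusted p 0.19), where the median of all genes was -0.44. Gm9747, which overlaps the end of Irs1 on the other strand, was listed at 0. Irs2 (ENSMUSG00000038894, chr8:10984681-11008458, minus strand), the adaptor gene that FOXO proteins are known to activate in fasted liver, had 510.2 and 663 normalized counts in Control and 522, 761 and 793 in Prox1 OE. These values overlapped between the groups. Its log2 fold change was 0.23 (SE 0.22, 95% interval -0.29 to 0.74), with a limma adjusted p of 0.46. Total count scaling, which put the median of all genes at -0.44, turned it to -0.20.

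The promoters of the Irs genes are printed because 2 motifs stand side by side in both. RefSeq (GRCm38.p6) gave a promoter window, 250 bases before to 50 bases after a start, for 7 of the 8 genes. Both strands of 32851 windows were searched for GTAAACA, the FOXO binding element, which was in 3.65% of windows; CAAAACA, the core of the insulin response sequence that FOXO proteins also bind, in 6.28%; CACGTG, the E-box of basic helix-loop-helix factors, in 7.15%; and AAGACG, a hexamer known from the fly homolog of PROX1, in 5.4%. The 250 bases before the start of Irs1 (chr1:82291440-82291689, minus strand) and of Irs2 (chr8:11008930-11009179, minus strand) follow, with the E-box and the reverse complement of the insulin response sequence, TGTTTTG, in capitals.
Irs1: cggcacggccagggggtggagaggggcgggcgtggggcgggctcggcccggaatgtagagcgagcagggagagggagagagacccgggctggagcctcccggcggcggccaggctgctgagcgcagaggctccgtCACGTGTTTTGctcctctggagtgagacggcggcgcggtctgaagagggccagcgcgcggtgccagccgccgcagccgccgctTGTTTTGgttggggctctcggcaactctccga
Irs2: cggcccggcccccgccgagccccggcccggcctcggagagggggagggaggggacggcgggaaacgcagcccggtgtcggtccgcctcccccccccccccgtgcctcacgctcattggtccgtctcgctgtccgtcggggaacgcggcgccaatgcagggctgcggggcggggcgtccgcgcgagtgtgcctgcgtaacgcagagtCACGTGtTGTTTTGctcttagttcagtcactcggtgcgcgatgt
In Irs1 the E-box lay at -115 to -110 and TGTTTTG at -111 to -105, sharing 2 bases, with a second TGTTTTG at -32 to -26. In Irs2 the E-box lay at -44 to -39 and TGTTTTG at -37 to -31. The 2 motifs occurred together in 134 of all windows (0.408%) and overlapped or lay at most 3 bases apart in 9 (0.0274%), of which Irs1 and Irs2 were 2. This distance was chosen after the sequences had been seen. Of the 11 windows of the 8 genes, only 1 held GTAAACA, in Akt1 at -161 to -155, and 0 held AAGACG. A match describes letters and not binding, and Irs1 and Irs2 differed in their calls.

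Foxo3 (ENSMUSG00000048756, chr10:42181841-42276755, minus strand), a transcription factor gene of stress and atrophy programs, was lower in Prox1 OE by a modest amount. Control libraries had 4069 and 4663 normalized counts and Prox1 OE libraries 2892, 3289.8 and 3378, without overlap. Means were 4366 ± 419.8 (SD, n = 2) and 3187 ± 259 (SD, n = 3), a change of -0.45 on the log2 scale (SE 0.12, 95% interval -0.75 to -0.16; limma adjusted p 0.029). The call was lost without Control replicate 1 (log2 fold change -0.55, adjusted p 0.11), Control replicate 2 (-0.36, 0.23) or Prox1 OE replicate 2 (-0.48, 0.062). Foxo1 (ENSMUSG00000044167, chr3:52268336-52353221, plus strand), the main FOXO gene of hepatic glucose production, had 1609 and 1811 normalized counts in Control and 1442, 1839.6 and 2693 in Prox1 OE. The groups overlapped, with Prox1 OE replicate 3 the highest of all libraries. Its log2 fold change of 0.17 (SE 0.24, 95% interval -0.40 to 0.74, limma adjusted p 0.61) became -0.07 without that library. It was -0.26 under total count scaling, where the median of all genes was -0.44.

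**Figure D2:**
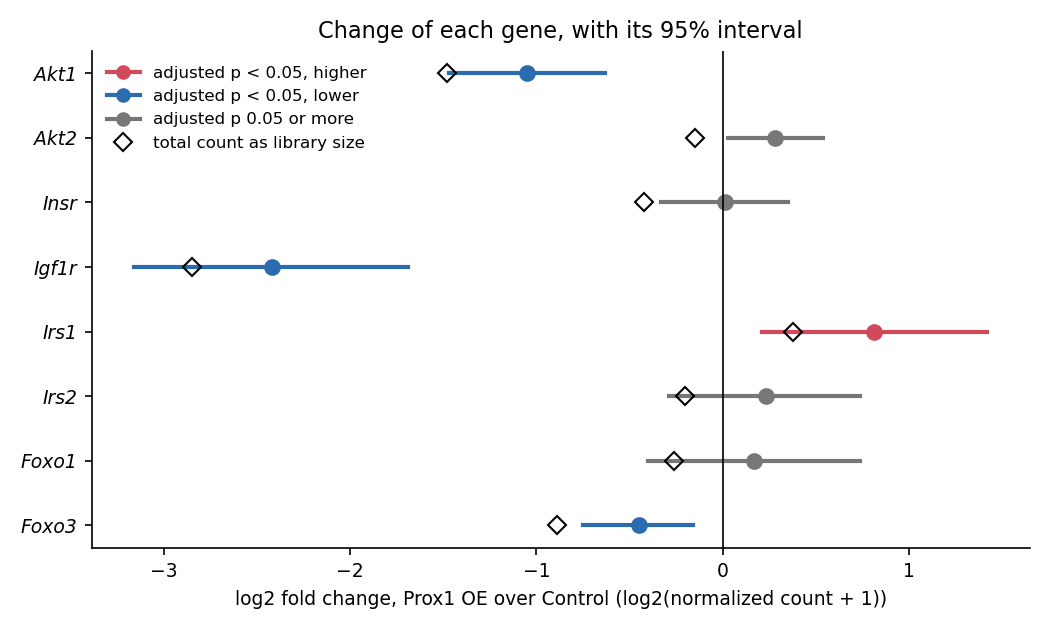
Log2 fold change of each gene, Prox1 OE over Control, with its 95% interval (bar) and the value with the total count as library size (open diamond). Akt1, Igf1r and Foxo3 lie left of 0 under both scalings and Irs1 right of 0, while Akt2, Insr, Irs2 and Foxo1 change side.

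Ratios of 2 relatives within a library do not depend on how libraries are scaled. In those with Akt1, the Akt1 value may include reads of the AKT plasmid, which were not separated. The Igf1r to Insr ratio was 0.51 and 0.445 in Control and 0.148, 0.0888 and 0.0518 in Prox1 OE, and the Akt2 to Akt1 ratio was 0.0697 and 0.0774 against 0.173, 0.16 and 0.228. Neither ratio overlapped between the groups, with differences in mean log2 ratio of -2.43 and 1.33 and an exact permutation p of 0.1 each (two-sided). That is the smallest p that 2 against 3 libraries can give, so this test could not pass 0.05. Irs2 to Irs1 was 2.12 and 2.05 in Control and 1.23, 1.85 and 1.17 in Prox1 OE, and Foxo3 to Foxo1 was 2.53 and 2.57 against 2.01, 1.79 and 1.25. Both were lower in all 3 Prox1 OE libraries, by 0.59 and 0.63 on the log2 scale, with an exact permutation p of 0.2. In contrast, Akt1 to Notch1 overlapped, at 4.44 and 4.62 in Control and 4.33, 5.83 and 4.98 in Prox1 OE (log2 difference 0.15, exact permutation p = 0.5). Adjusted by Benjamini-Hochberg over the 6 ratios computed, the value was 0.5 for Akt1 to Notch1 and 0.24 for the other 4 given here.

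**Figure D3:**
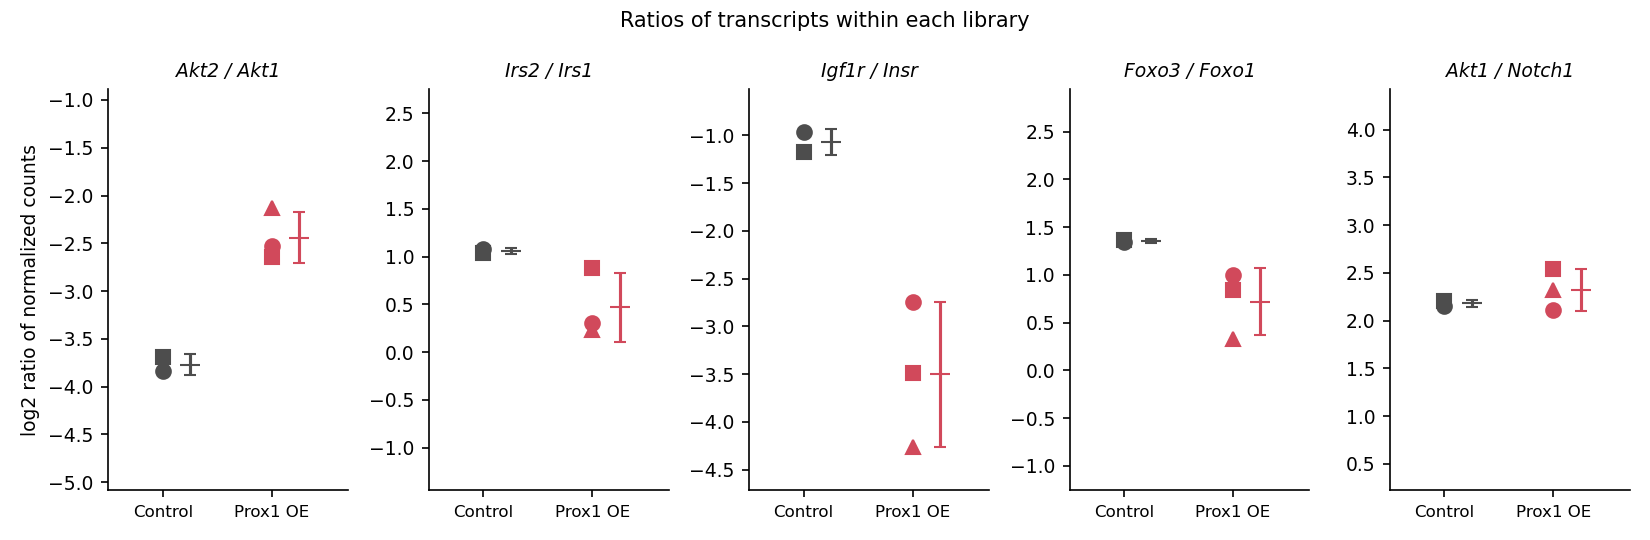
Log2 ratio of 2 transcripts in each library, with Control in dark and Prox1 OE in red, replicate 1 as a circle, 2 as a square and 3 as a triangle, and the group mean with SD beside the points. All panels span the same log2 range, and only the Akt1 to Notch1 points of the 2 groups overlap.

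Levels of different genes can be compared per kilobase of exon. Reads of the AKT plasmid were not separated from those of Akt1, so its level may not be that of the mouse gene alone. In Control the order was Akt1 (mean of 13793 normalized counts per kilobase), Akt2 (582), Foxo3, Insr (231), Foxo1, Irs2 (92.8), Igf1r (89.9) and Irs1 (30.8). The ranges of Akt2 and Foxo3 overlapped there, as did those of Irs2 and Igf1r, and all other neighbors were apart. In Prox1 OE the order began in the same way, with Akt1 at 6724, Akt2 at 708, Foxo3 at 421 and Insr at 233. Igf1r came last at 17.7, below Irs2 (109) and Irs1. Insr and Foxo1 overlapped in Prox1 OE, and all other neighbors were apart. With the length of 1 long coding transcript in place of all exons, Igf1r (132.4) stood above Irs2 (92.76) in Control and was again last in Prox1 OE, at 26.08.

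The other genes of the pathway were described with lists that hold 100 genes by role, written with earlier results of these data known. Of 98 genes tested, 25 were higher, 14 were lower and 59 were not called, and their median log2 fold change was 0.09, beside 17.1% higher and 16.2% lower among all genes tested. Of the higher calls, 6 were FOXO targets and 11 insulin-induced genes, which stand at the end of the chain. Calls over all genes tested also fell when a Control library was left out, to 3.98% higher and 2.79% lower without Control replicate 1 and to 8.4% and 4.88% without Control replicate 2. The pathway counts without Control replicate 1 were 4 higher and 3 lower. Under total count scaling they were 19 higher and 40 lower, where 8.62% of all genes tested were higher and 39.9% lower, and all lists but the insulin-induced genes then had a median under 0.

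**Figure D4:**
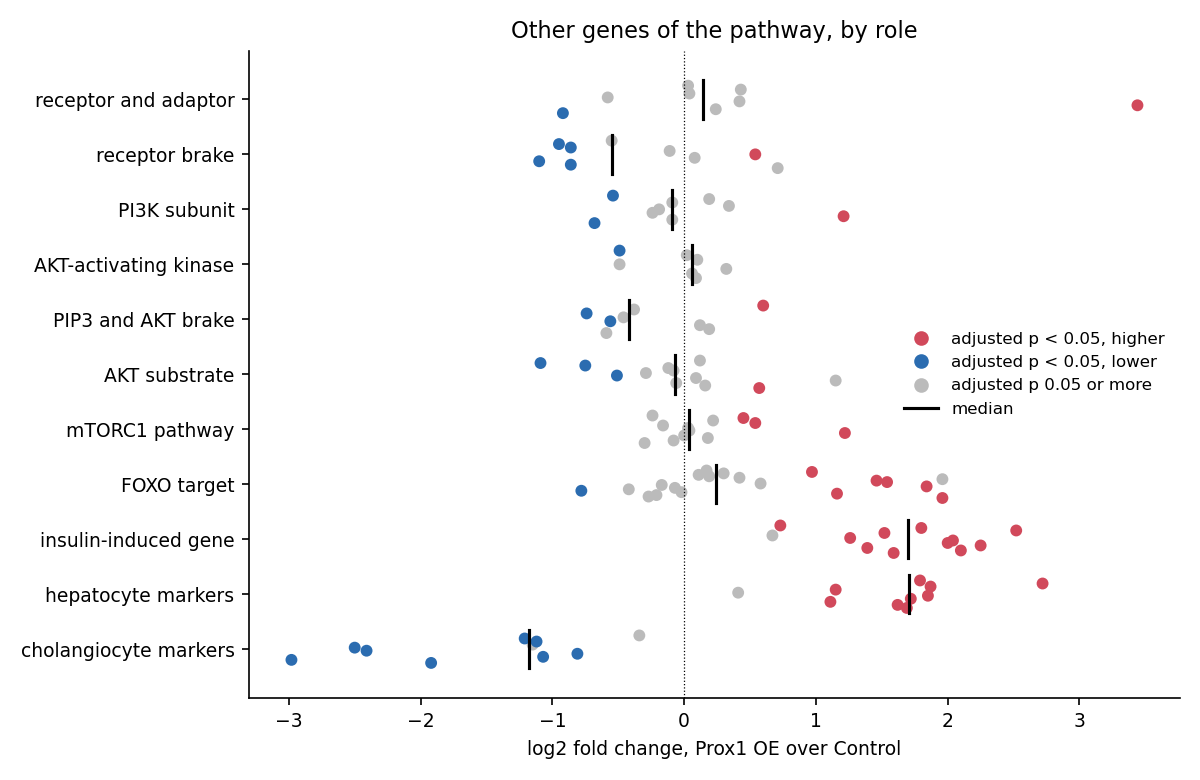
Log2 fold change, Prox1 OE over Control, of each tested gene of 9 pathway lists and of the hepatocyte and cholangiocyte markers (points, colored by call), with the median of each list (bar). Insulin-induced genes and hepatocyte markers have the same median of 1.70, and cholangiocyte markers one of -1.18.

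Among receptors and adaptors, 1 of 8 genes tested was called higher and 1 lower. The higher one was Insrr, a receptor relative of INSR, with 6.57 and 0.848 normalized counts in Control and 52.1, 50.7 and 23.1 in Prox1 OE. It passed the filter on low values only through its Prox1 OE libraries and was not tested at a mean of at least 50, so nothing is drawn from its call, which is among the 25. Gab1, a docking protein of receptor kinases, fell by 0.92 on the log2 scale (limma adjusted p 0.0074), a call lost on leaving out Control replicate 1 or Control replicate 2. Irs4, too low to test, had 10.7 and 9.32 normalized counts in Control and 1.02, 0 and 0 in Prox1 OE. Of 9 genes listed as brakes on the receptors, 4 were lower and 1 was higher. Grb10, an adaptor that inhibits INSR and IGF1R, went from 10401 and 9420 normalized counts to 5118, 4505 and 4229, or -1.10 on the log2 scale (limma adjusted p 0.0025). Its values did not overlap between the groups. Enpp1 (-0.86, 0.0029), the receptor phosphatase gene Ptprf (-0.86, 0.0041) and Socs1 (-0.95, 0.019) were lower as well, whereas Grb7 (0.54, 0.016) was higher, each pair giving the log2 fold change and the limma adjusted p. Without Control replicate 1 this list had 2 genes lower and 0 higher, where 2.79% of all genes tested were lower, and without Control replicate 2 it had 3 and 0, where 4.88% were lower.

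Between the adaptors and AKT, calls went in both directions. Of 9 PI3-kinase genes, the class II genes Pik3c2g (1.21 on the log2 scale, limma adjusted p 0.012) and Pik3c2a (-0.68, 0.0048) and the regulatory subunit gene Pik3r3 (-0.54, 0.015) passed the test. Pik3ca, the main catalytic subunit, had 2679 and 2713 normalized counts in Control and 2323, 2072 and 2457 in Prox1 OE (limma adjusted p 0.15). Among 7 genes of the kinases that activate AKT, only Rictor, the defining subunit of mTORC2, was called, lower by -0.49 (limma adjusted p 0.025). Of 8 tested genes that remove PIP3 or restrain AKT, Inppl1 (-0.56, 0.011) and the AKT phosphatase gene Phlpp2 (-0.74, 0.012) were lower and the AKT inhibitor gene Trib3 (0.60, 0.024) was higher by limma. The Rictor call was lost on leaving out any library but Prox1 OE replicate 1, and that of Trib3 on leaving out either Control library or Prox1 OE replicate 2. Without Control replicate 1, 0 genes of these 3 lists were called, in a fit that called 3.98% of all genes tested higher and 2.79% lower. Without Control replicate 2, which gave 8.4% and 4.88%, 0 of the genes that activate or restrain AKT were called.

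Downstream of AKT, 3 of 12 substrate genes were lower and 1 was higher. Tbc1d4, a regulator of glucose transporter traffic, had 2092 and 2308 normalized counts in Control and 1100.2, 1023 and 985 in Prox1 OE (-1.09 on the log2 scale, limma adjusted p 0.0024), and its relative Tbc1d1 was lower by -0.75 (0.0039). Gsk3b, a kinase of glycogen synthase, was lower by -0.51 (limma adjusted p 0.035), and Akt1s1, an inhibitor of mTORC1, was higher by 0.57 (0.0086). Without Control replicate 1 the substrate calls were 1 lower and 0 higher, beside 2.79% and 3.98% of all genes tested. Of 12 mTORC1 pathway genes, 3 were higher and 0 lower by limma, namely Rps6kb2 (0.54, 0.015), Tbc1d7 (0.45, 0.029) and Lpin1 (1.22, 0.029). In that list 0 genes were lower at an unadjusted limma p under 0.05. By edgeR and DESeq2 0 were lower as well, where 15.7% and 18.6% of all genes tested were. Under the replicate block 1 was lower, where the share of all genes tested was slightly smaller than by edgeR. Total count scaling gave 7 lower, where 39.9% of all genes tested were. The higher calls of this list numbered 1 with limma without the trend (13.4% of all genes tested were higher there), 1 without Control replicate 2 (8.4%), 1 without Prox1 OE replicate 2 (12.5%) and 0 without Control replicate 1 (3.98%).

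FOXO targets were called higher in 6 of 20 cases and lower in 1, and 13 were not called. Among all genes tested, 17.1% were higher and 16.2% lower. The median log2 fold change of the list was 0.24. Mttp and Apoc3, genes of lipoprotein assembly and clearance, were higher by 1.46 (limma adjusted p 0.0032) and 1.96 (0.0043). The antioxidant genes Sod2 (0.97, 0.0045) and Cat (1.16, 0.0068) were higher as well, as were G6pc, of glucose release, and Klf15. Cdkn1b, a cell cycle inhibitor, was lower, at 2484 and 2434 normalized counts in Control and 1399, 1417 and 1480.2 in Prox1 OE (log2 fold change -0.78, limma adjusted p 0.0033). Pck1, a gluconeogenic gene known as a FOXO1 target, had 6870 and 12639 normalized counts in Control and 11296, 56549 and 74609 in Prox1 OE. Its groups overlapped and its limma adjusted p was 0.078. Igfbp1, another such gene, overlapped too, at 4568 and 9730.2 against 2656, 23788 and 15793. Under total count scaling the median of the list turned to -0.19, where that of all genes tested was -0.44.

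Insulin-induced genes of glucose use and lipid synthesis were higher in 11 of 12 cases, with a median log2 fold change of 1.70. Acacb, an acetyl-CoA carboxylase, had 1391 and 1861 normalized counts in Control and 7029.6, 5331 and 8839 in Prox1 OE (log2 fold change 2.10, limma adjusted p 0.0024). All 3 Prox1 OE libraries lay far above both Control libraries. Fasn (2.00, 0.0047) and Srebf1 (0.73, 0.0042), which encode the fatty acid synthase and SREBP1, were higher too by limma. Me1 was the exception, at 0.67 with a limma adjusted p of 0.1. Without Control replicate 1, where 3.98% of all genes tested were called higher, 2 of these 12 genes and 1 of the 20 FOXO targets were, and the list medians were 1.47 and 0.22. Hepatocyte markers, with 9 of 10 higher and the same median of 1.70, moved with the insulin-induced genes. Of these markers, 0 of 10 were called without Control replicate 1 (median 1.23) and 5 without Prox1 OE replicate 2, and their part in these results was not tested. The list was written with these data known, so that its direction is no independent evidence.

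For each of the 8 genes, the 3 protein-coding genes with the most similar pattern over the 5 libraries were found by the root mean square difference of centered log2 values, among 12434 genes with a mean normalized count of at least 100. Akt1 was most like Pcyt1b (0.0357), Trim35 (0.0361) and Ctbp2 (0.0386), while Notch1 ranked 368 (0.155). Igf1r was most like Csmd1 (0.0447), Krt7 (0.0819), which encodes a keratin of bile duct cells, and Nmnat2 (0.102). Krt7 had 2319 and 2451 normalized counts in Control and 636, 372 and 317 in Prox1 OE. The nearest genes to Irs1 were Ppp1r3b (0.0295), a glycogen-targeting subunit of a phosphatase, Adamdec1 (0.0684) and Cldn1 (0.0707). Foxo3 lay nearest to B4galt1 (0.0143), Klf6 (0.0354) and Mrfap1 (0.0407). For the genes without a call, the nearest were Snd1 (0.0164), Cpped1 and Adipor1 for Akt2, Ybey (0.0296), Stard4 and Mmrn2 for Insr, Elk4 (0.0231), Camk2n1 and Irf2bp2 for Irs2, and Olfr1033 (0.0782), Clec2d and Zfp874a for Foxo1. These points share 5 libraries and a group difference, and the likeness is a description with no test.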

How the data were processed

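The authors prepared strand-specific libraries (dUTP protocol), sequenced them in pairs of 100-base reads and mapped them with STAR to mm10, per the labels. The counting tool is not given in the sources used here. The values deposited by the authors are a signal: each gene's reads in a library over that library's DESeq2 size factor, called the normalized count here. Whole reads were recovered for 100.0% of values (tolerance 0.001), and 0 columns of per-sample values were left unassigned. A second table by the authors holds their own comparison (mean, shrunken log2 fold change, p-values before and after hypothesis weighting) and was not used. Symbols and positions came from GENCODE M21 (GRCm38, the sequence of mm10), which held 55137 of 55397 identifiers (99.53%).

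Genes with a mean normalized count of at least 10 were tested with limma 3.58.1 in R 4.3.3 (lmFit, eBayes with trend, two-sided) on log2(normalized count + 1), a scale that understates changes of low genes, adjusted by Benjamini-Hochberg, with calls under 0.05. The study names a covariate only for its fibroblast reprogramming data, and none was used here. Ratios were tested with an exact permutation test. Procedures were tested on simulated data. Depth limited no statement on the 8 genes, whose lowest count in any library was 167 reads.

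The 8 genes, the pathway and marker lists and the tests were chosen with earlier results of these data known. Named beside the 8 genes were Prox1 and Notch1, up to 4 called genes of each list and direction with the lowest adjusted p, and the 3 genes most like each of the 8, though some results that this rule covers are not reported here. Pck1, Igfbp1, Pik3ca, Irs4, Me1, G6pc, Klf15 and the markers named singly were picked with their values in view. The alternatives rescaled libraries (TMM, upper quartile, total count), used a pseudocount of 0.1 or 10, dropped the filter or raised it to 50, fitted limma with no trend, ran edgeR 4.0.16 or DESeq2 1.42.0 on the recovered reads, blocked on replicate number, or left out 1 library at a time.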

Additional observations from a re-analysis of the deposited data

How the results depend on the processing

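Of 16 alternatives, Igf1r kept its call in 16 and Akt1 in 15. The total count as library size, which moved the median of all genes from -0.02 to -0.44, gave 0 of the 8 genes higher and 40 pathway genes lower (39.9% of all genes tested were lower), with log2 fold changes of -0.15 for Akt2, -0.42 for Insr, -0.20 for Irs2, -0.26 for Foxo1 and 0.38 for Irs1. Without a filter, and for limma without the trend, 0 of the 8 were higher, as Irs1 (0.81 in both; limma adjusted p 0.08 and 0.09) lost its call, and so did Foxo3 (-0.45 in both; 0.05 and 0.073). The replicate block, for which replicate numbers are shared by 2 libraries each and Prox1 OE replicate 3 was dropped, gave 0 of the 8 higher, with -0.11 for Insr, -0.07 for Foxo1 and 0.58 for Irs1 (limma adjusted p 0.053). Deviations of same-numbered libraries correlated at 0.137 and 0.016 over genes, and nothing says that a number marks a pair. Leaving out each library in turn gave 0 to 1 of the 8 higher, 1 to 3 lower, 4 to 27 pathway genes higher and 3 to 18 lower. The count higher was 0 in 4 of these 5 fits, and the other 3 counts were lowest without Control replicate 1, as were calls over all genes (681 higher and 477 lower of 17105). There Prox1 OE was compared with a lone Control library assumed to vary like Prox1 OE. Over these 5 fits, log2 fold changes ran from -1.13 to -0.91 for Akt1, -2.75 to -2.16 for Igf1r, -0.11 to 0.10 for Insr, 0.58 to 1.03 for Irs1, -0.07 to 0.38 for Foxo1 and -0.55 to -0.36 for Foxo3. The cause of these changes was not tested. With 2 Control libraries, small changes such as those of Irs1 and Foxo3 rest on few values.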
